A study of Mus musculus with 18 samples.

Results

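Tumor-infiltrating T cells of mice without the nuclear receptor NR2F6 were compared with those of wild-type mice while PD-L1 was blocked. The comparison holds 12 of the 18 libraries of the series, 6 from Nr2f6-/- mice and 6 from wild-type mice, taken by the genotype and treatment in the sample labels. The mice of both genotypes had a C57BL/6 background, onto which the Nr2f6 knockout had been back-crossed repeatedly. Each received 500000 B16-OVA cells, a mouse melanoma line that expresses ovalbumin, under the skin, and from d3 on 0.5 mg of an anti-PD-L1 antibody i.p. at 2 doses a week. Tumors were taken at d14. The other 6 libraries are 3 of each genotype with the control antibody IgG2b. They served to estimate the spread and to set the genotype difference under one antibody beside that under the other.

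NR2F6 is an orphan nuclear receptor of the COUP-TF family that binds DNA and mostly represses transcription. In T cells it is known to oppose NFAT and AP-1 at cytokine genes such as Il2 and Ifng. PD-L1 on tumor and myeloid cells binds PD-1 on T cells and dampens signals from the T cell receptor, and the antibody breaks this contact. The comparison therefore asks what the loss of the intracellular brake adds in T cells when the surface brake is already released.

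What can be read from the samples has limits. The knockout was in every cell of the mouse, not only in T cells. The T cells were selected with CD4 and CD8 beads, pooled and then sorted for CD3, so each value averages CD4+ and CD8+ T cells. In such bulk samples, fewer cells of a type and less RNA per cell cannot be told apart. The labels number the replicates but do not say that each came from its own mouse, so p-values measure the spread between these samples. Libraries were made from 20 ng of RNA with a kit that reads transcript 3′ ends.

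The 12 libraries held between 12473391 and 18609482 reads on genes, and 3 reads corresponded to between 2.46 and 3.64 normalized counts. All 13 T cell marker genes were detected. Their summed level was between 162926 and 189528 normalized counts in Nr2f6-/- samples (median 178656) and between 123287 and 175881 in wild-type samples (median 132218). Markers of other cells were present at far lower levels and in both genotypes. The 12 melanocyte and melanoma genes summed to between 989 and 5748 normalized counts in Nr2f6-/- samples and between 2208 and 9448 in wild-type samples, with Tyr and Oca2 at 0 in all Nr2f6-/- samples. The 16 macrophage and monocyte genes summed to between 1287 and 3195 in Nr2f6-/- samples and between 1788 and 7192 in wild-type samples. Of the library numbers in the labels, 31 to 39 form a first set with replicates 1 to 3 and 43 to 48 a second set with replicates 4 to 6.

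Nr2f6 itself was at 0 in all 6 Nr2f6-/- samples. In wild-type samples it was between 26.1 and 201 normalized counts, with a median of 87.0. Set against 3 reads per library, expression was at least 30.6-fold lower in Nr2f6-/- samples. The targeted gene thus matched the labels of all 12 libraries.

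Over all genes, the contrast was small in the main test with limma, but the number of genes called depended on the method. At an adjusted p under 0.05, edgeR called 22 genes and DESeq2 184, both on reads recovered from the values. Normalized counts were put on a scale of log2(value + 1), on which the fold changes of low genes depend on the added 1, and 11992 of the 37236 genes, those with a mean of at least 10 over the 18 samples, were tested with limma (two-sided, Benjamini-Hochberg adjustment over all genes tested). At an adjusted p under 0.05, 11 genes (0.0917% of those tested) were higher and 10 (0.0834%), Nr2f6 included, were lower in Nr2f6-/- samples. The samples of the 2 genotypes did not overlap for 14 of these 21 genes, against 0.592% of all genes tested. Choosing the genes on these same samples largely fixes that gap. All 21 had the same sign in both library sets (52.1% of all genes tested did), which their choice on both sets together largely fixes. In the plot of single samples, the separation of the genotypes can be followed gene by gene.

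**Figure D1:**
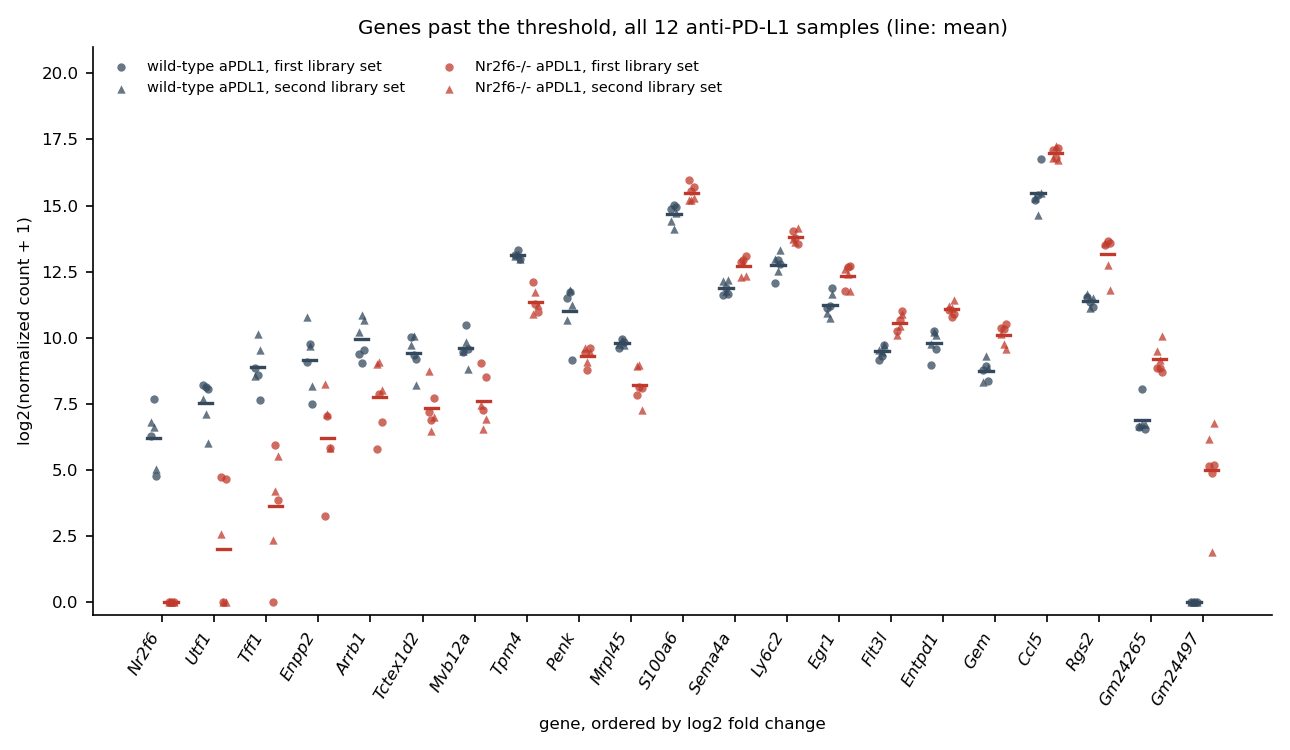
Values of the 21 genes past the threshold in the 12 anti-PD-L1 samples. The y axis is log2(normalized count + 1), the x axis orders genes by log2 fold change, points are samples (circles first, triangles second library set), and lines are group means. Nr2f6 lies at 0 in every Nr2f6-/- sample and Gm24497 at 0 in every wild-type sample, while Ccl5 overlaps through 1 wild-type sample at 111441 normalized counts.

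The smallest p belonged to Tpm4, which encodes a tropomyosin that lines actin filaments. It was between 1895 and 4356 normalized counts in Nr2f6-/- samples (median 2449) and between 8063 and 10074 in wild-type samples (median 8832). The groups lay far apart, at a log2 fold change of −1.74 ± 0.17 (SE, limma adjusted p = 8.06e-07). Mvb12a, a subunit of the ESCRT-I complex that sorts receptors into vesicles, fell as well. It was between 92.6 and 531 normalized counts in Nr2f6-/- samples (median 162) and between 450 and 1435 in wild-type samples (median 739), so that the groups overlapped slightly. Its log2 fold change was −2.0 ± 0.40 (SE, limma adjusted p = 0.0257).

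Both genes are neighbors of the deleted gene. On chromosome 8 of GRCm38.p6, Nr2f6 lies at chr8:71374118-71381967, Mvb12a at chr8:71542907-71548026, 0.161 Mb away, and Tpm4 at chr8:72135288-72153142, 0.753 Mb away. Among the 100 tested genes within 5 Mb on either side, these were the 2 past the threshold. Of the 100, 14 were lower and 3 higher at an unadjusted p under 0.05, where 5.07% of all genes tested were lower and 4.66% higher. Whether the targeted chromosome segment itself has a part in this was not tested.

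Utf1, a chromatin-bound transcription factor best known from embryonic stem cells, and Tff1, a secreted trefoil peptide of mucous epithelia, were nearly absent from Nr2f6-/- samples. Utf1 was at 0 in 3 of the Nr2f6-/- samples and at most 25.1 normalized counts in the others, against 63.5 to 293 in wild-type samples (median 233). Tff1 was between 0 and 60.8 in Nr2f6-/- samples (median 15.2) and between 197 and 1130 in wild-type samples (median 416). Neither gene's groups overlapped. The log2 fold changes were −5.54 for Utf1 (adjusted p = 0.00449 from limma) and −5.23 for Tff1 (adjusted p = 0.00147). With a pseudocount of 10 they were −3.59 and −4.17, and with edgeR −4.50 and −4.52. Both genes rest on few reads in the Nr2f6-/- samples.

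5 further genes fell. Enpp2 encodes autotaxin, the secreted enzyme that makes lysophosphatidic acid, and was between 8.37 and 306 normalized counts in Nr2f6-/- samples (median 92.6) against 177 to 1756 (median 684). Arrb1 encodes beta-arrestin 1, which uncouples and internalizes G protein-coupled receptors, and was between 53.9 and 540 (median 244) against 529 to 1841 (median 960). Penk, the precursor of enkephalins, was between 439 and 773 (median 695) against 575 to 3610 (median 2644). In each of these genes the lowest wild-type sample reached into the Nr2f6-/- range. Their log2 fold changes were −2.95 for Enpp2, −2.19 for Arrb1 and −1.69 for Penk, with adjusted p between 0.0299 and 0.0411 from limma. Tctex1d2, a dynein light chain, fell by 2.10 on the log2 scale (adjusted p = 0.0414 from limma) and overlapped. Mrpl45, a protein of the large mitochondrial ribosomal subunit, fell by 1.59 (adjusted p = 0.0274 from limma) and did not overlap.

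Of the genes that rose, 3 belong to the early response to receptor signals. Rgs2, which speeds GTP hydrolysis by G protein alpha subunits and so shortens their signals, had the largest log2 fold change of the protein-coding genes that rose. It was between 3566 and 13072 normalized counts in Nr2f6-/- samples (median 11960) and between 2219 and 3232 in wild-type samples (median 2751). The log2 fold change was 1.76 ± 0.23 (SE, limma adjusted p = 8.85e-05). In the first library set the Nr2f6-/- samples lay between 11739 and 13072, and in the second they spread from 3566 to 12198.

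Gem, a small GTPase of the RGK family that inhibits voltage-gated calcium channels, was between 759 and 1481 normalized counts in Nr2f6-/- samples (median 1197) and between 321 and 629 in wild-type samples (median 450). Egr1, a zinc finger factor induced within minutes by T cell receptor and MAP kinase signals, was between 3468 and 6749 (median 5810) against 1724 to 3748 (median 2273). Gem separated the groups, and Egr1 overlapped through its highest wild-type sample. The log2 fold changes were 1.36 for Gem (adjusted p = 0.0232 from limma) and 1.08 for Egr1 (adjusted p = 0.0197).

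Secreted and surface proteins made up the next group. Ccl5, the chemokine RANTES of effector and memory T cells, was between 108648 and 157300 normalized counts in Nr2f6-/- samples (median 126871). Of the wild-type samples, 5 lay between 25409 and 45817 and replicate 3 at 111441. The log2 fold change was 1.51 ± 0.22 (SE, limma adjusted p = 0.000732). Entpd1 encodes CD39, which breaks down extracellular ATP and marks exhausted CD8+ and regulatory T cells in tumors. It was between 1765 and 2735 normalized counts in Nr2f6-/- samples (median 2181) and between 497 and 1202 in wild-type samples (median 977), without overlap, at a log2 fold change of 1.27 (adjusted p = 0.0133 from limma).

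Flt3l, the growth factor of dendritic cells, was between 1109 and 2074 normalized counts in Nr2f6-/- samples (median 1495) and between 572 and 847 in wild-type samples (median 722). Ly6c2, a Ly6C surface protein of activated CD8+ T cells and monocytes, was between 11798 and 18198 (median 13849) against 4235 to 10209 (median 7434). Sema4a, a semaphorin that costimulates T cells, was between 5062 and 8812 (median 7349) against 3130 to 4608 (median 3608). In all 3 genes every Nr2f6-/- sample lay above every wild-type sample. The log2 fold changes were 1.08 for Flt3l, 1.05 for Ly6c2 and 0.86 for Sema4a, with adjusted p of 0.0274, 0.00218 and 0.0317 from limma. S100a6, a small calcium-binding protein, rose by 0.81 on the log2 scale (adjusted p = 0.0360 from limma), also without overlap. Reads of Ly6c2 and its near-identical paralog Ly6c1 may have been split by the counting, so the level of Ly6c2 alone is uncertain.

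2 short noncoding RNA genes rose most. Gm24265 on chromosome 5 is annotated as a small nuclear RNA and has the sequence of U4, and Gm24497 on chromosome 1 has that of U2. Both RNAs are parts of the spliceosome. Their annotated transcripts, from the GENCODE vM21 annotation of GRCm38, are shown because they decide how far the values can be assigned to these genes. Capitals mark the bases covered by no 22-base window found in another annotated transcript.
Gm24265: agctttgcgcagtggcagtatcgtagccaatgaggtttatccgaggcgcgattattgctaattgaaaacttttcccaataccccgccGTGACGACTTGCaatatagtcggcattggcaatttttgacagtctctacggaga
Gm24497: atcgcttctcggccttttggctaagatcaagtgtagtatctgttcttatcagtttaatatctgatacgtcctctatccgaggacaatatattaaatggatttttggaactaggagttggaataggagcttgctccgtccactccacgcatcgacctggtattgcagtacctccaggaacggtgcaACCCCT
Of the 120 windows of Gm24265, 72.5% occurred in transcripts of other genes, 21 genes in all, and of the 170 windows of Gm24497, 96.5%, in 52 other genes. Reads on either gene could therefore stem from other copies. The libraries were made with a kit for mRNA, and how evenly it captures small nuclear RNAs was not tested. Gm24265 was between 416 and 1059 normalized counts in Nr2f6-/- samples (median 518) and between 91.0 and 266 in wild-type samples (median 102), a log2 fold change of 2.30 (adjusted p = 0.00147 from limma). Gm24497 was between 2.70 and 108 normalized counts in Nr2f6-/- samples (median 34.8) and at 0 in all 6 wild-type samples, at least 16.3-fold higher against 3 reads per library (adjusted p = 0.0468 from limma).

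Calls differed in how far they held when single samples were left out. 9 of the 21 genes, Nr2f6, Utf1, Tff1, Tpm4, Ly6c2, Entpd1, Ccl5, Rgs2 and Gm24265, stayed past the threshold whichever of the 12 samples was left out, and the other 12 lost it at least once. When the fit used the 12 anti-PD-L1 samples alone, without the IgG2b samples in the estimate of the spread, 4 genes kept the call: Nr2f6, Tpm4, Ccl5 and Rgs2. The adjusted p in that fit was 0.0557 for Ly6c2, Entpd1 and Gm24265, 0.067 for Tff1 and 0.113 for Utf1. Without Nr2f6-/- replicate 1 the number of called genes was 12, without Nr2f6-/- replicate 2 it was 9, without wild-type replicate 4 it was 11 and without wild-type replicate 5 it was 13. Gm24497 kept the call in 1 of the 12 (adjusted p up to 0.0999 without Nr2f6-/- replicate 6), while its log2 fold change was 5.0 whichever wild-type sample was left out and 4.65 without that replicate. For Enpp2, the adjusted p reached 0.144 without wild-type replicate 4, for Arrb1 and S100a6 0.121 without wild-type replicate 5, and for Tctex1d2 0.121 without wild-type replicate 5. It reached 0.119 for Penk without wild-type replicate 5, 0.0972 for Sema4a without Nr2f6-/- replicate 2 and 0.0855 for Flt3l without Nr2f6-/- replicate 3. For Mrpl45 and Gem it reached 0.0798 and 0.0769 without Nr2f6-/- replicate 1, and for Mvb12a and Egr1 0.0741 without Nr2f6-/- replicate 2.

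Promoter sequences were available from RefSeq (GRCm38.p6) for 12 of the 21 genes, with 17 start sites. The 250 bases before the start are shown for 5 genes that fell or rose without an assay of the promoter itself: the neighbors Tpm4 (chr8:72135038-72135287, plus strand) and Mvb12a (chr8:71542680-71542929, plus strand), Utf1 (chr7:139943606-139943855, plus strand), Rgs2 (chr1:144004150-144004399, minus strand) and Flt3l (chr7:45136433-45136682, minus strand). Each is written 5′ to 3′ in the direction of transcription. Each window ends at a listed start site. For Mvb12a and Flt3l that site lies inside the annotated gene, so that the window reaches into the gene. Capitals mark AGGTCA, the half-site that COUP-TF receptors bind, and GGAAA, the NFAT core, on either strand.
Tpm4: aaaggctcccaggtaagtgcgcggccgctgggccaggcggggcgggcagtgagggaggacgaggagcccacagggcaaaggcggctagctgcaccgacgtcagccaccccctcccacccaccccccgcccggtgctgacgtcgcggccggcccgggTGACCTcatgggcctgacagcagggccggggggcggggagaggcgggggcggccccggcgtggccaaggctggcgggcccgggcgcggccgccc
Mvb12a: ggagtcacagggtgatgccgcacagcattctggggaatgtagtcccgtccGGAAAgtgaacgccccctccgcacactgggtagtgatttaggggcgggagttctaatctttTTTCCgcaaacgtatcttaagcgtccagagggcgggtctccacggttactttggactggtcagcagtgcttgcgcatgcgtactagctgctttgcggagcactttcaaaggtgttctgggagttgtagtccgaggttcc
Utf1: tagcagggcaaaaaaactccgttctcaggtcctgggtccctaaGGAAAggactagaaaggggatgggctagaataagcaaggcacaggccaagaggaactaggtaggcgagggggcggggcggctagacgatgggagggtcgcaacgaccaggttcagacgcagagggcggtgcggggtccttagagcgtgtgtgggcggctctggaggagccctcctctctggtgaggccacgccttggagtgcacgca
Rgs2: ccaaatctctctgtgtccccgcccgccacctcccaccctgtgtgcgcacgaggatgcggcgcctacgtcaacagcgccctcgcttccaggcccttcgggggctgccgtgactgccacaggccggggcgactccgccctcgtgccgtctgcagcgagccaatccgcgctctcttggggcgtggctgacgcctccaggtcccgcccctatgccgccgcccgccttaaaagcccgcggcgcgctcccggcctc
Flt3l: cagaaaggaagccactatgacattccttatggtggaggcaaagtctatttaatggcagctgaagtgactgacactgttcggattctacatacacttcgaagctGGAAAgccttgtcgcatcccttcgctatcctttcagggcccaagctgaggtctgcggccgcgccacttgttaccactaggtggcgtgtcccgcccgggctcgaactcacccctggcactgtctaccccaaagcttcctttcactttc
AGGTCA stood in the Tpm4 window alone, 1 of the 17 (5.88%), against 14% of all 32851 promoters. GGAAA stood in 7 of the 17 (41.2%), from 6 genes, against 55.6% of all. TGANTCA, the AP-1 site, and TGACGTCA, the cyclic AMP response element, stood in 0 of the 17, against 6.75% and 1.55% of all promoters. These are matches of letters within the windows and say nothing of whether a factor bound there.

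The first and second library sets repeat the comparison with different samples. With 3 against 3 samples, the first set alone called 1 gene, Rgs2, and the second 0, with 966 and 755 genes at an unadjusted p under 0.05 in limma. In the second set, 551 of the 966 genes of the first (57.0%) had the same sign, against 52.1% of all genes tested. Same sign together with an unadjusted p under 0.05 was found for 73 (7.56%) of the 966 genes, against 3.87% of all genes tested, where 6.30% had such a p in either direction. When the IgG2b samples of the first set were added to its fit, 34 genes passed the threshold. Of these, 18 (52.9%) had the same sign in the second set, against 52.1% of all genes tested. The same sign together with an unadjusted p under 0.05 was found for 4 (11.8%), against 3.87% of all genes tested. The opposite sign with such a p was found for 1. This fit was added after the data had been seen.

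**Figure D2:**
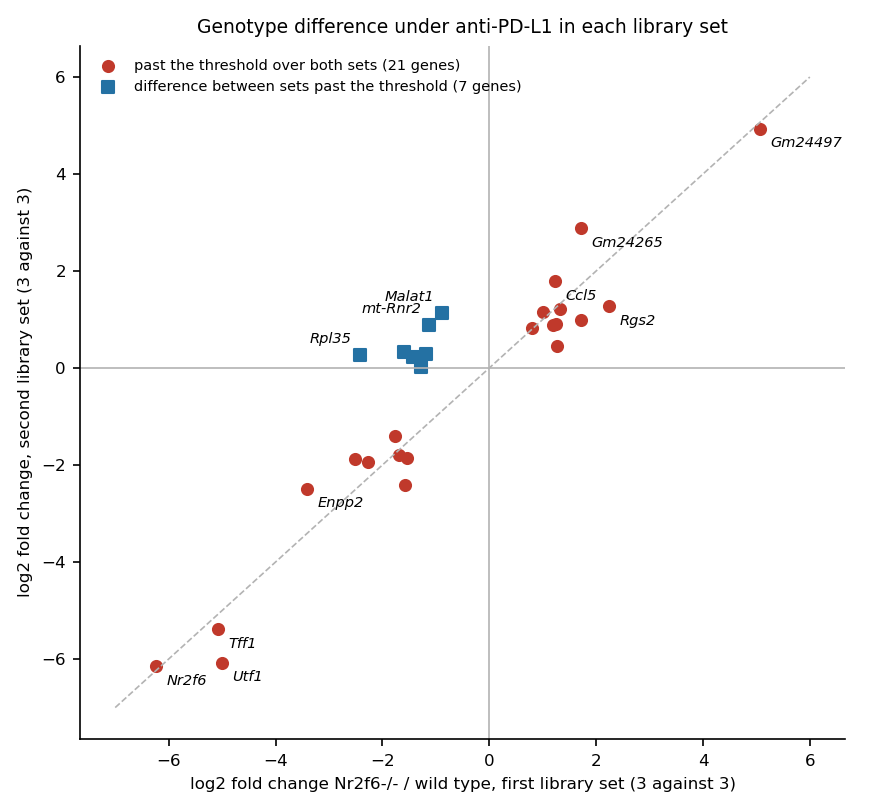
Genotype difference under anti-PD-L1 in each library set. Axes are log2 fold changes (Nr2f6-/- over wild type) in the first and second set, 3 against 3 samples each, circles are the 21 genes past the threshold over both sets, squares the 7 genes whose difference between sets passed it, and the dashed line marks equality. Circles were chosen on both sets together and squares for a difference between sets, so that circles sharing their sign and squares lying on opposite sides of 0 largely follow from the choice.

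The genotype difference itself changed between sets for 7 genes (0.0584% of those tested), named here after their values were seen. They are Rpl35, Rpsa and Rpl10-ps3 of the ribosome or its pseudogenes, the mitochondrial ribosomal RNA mt-Rnr2, the nuclear noncoding RNA Malat1, the chromatin protein gene Hmgb2 and Capzb, which caps actin filaments. All were lower in Nr2f6-/- samples of the first set and higher in those of the second. The number was 40 without wild-type replicate 1 and 0 without wild-type replicate 2, wild-type replicate 5 or Nr2f6-/- replicate 5, and between 1 and 8 without any other sample. Rpl35 was between 416 and 1131 normalized counts in Nr2f6-/- samples of the first set against 2334 to 7291 in wild-type samples, and between 3059 and 4922 against 2388 to 4095 in the second.

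The lists of T cell genes were set beside all genes tested, whose median log2 fold change was −0.0049, with 5948 of 11992 higher. All gene lists were chosen with earlier results of these data known, so counts of their members describe the lists and test nothing. Immediate-early and signal feedback genes had a median of 0.52 and 32 of 40 higher. Of these, 3 (Rgs2, Egr1 and Gem) passed the threshold, and 10 higher and 1 lower had an unadjusted p under 0.05, against 4.66% and 5.07% of all genes tested. Tnfaip3, an inhibitor of NF-kB, and Dusp1, a MAP kinase phosphatase, were among the 10, with log2 fold changes of 1.32 and 0.82. Averaged over the 40 genes on the log2 scale, the genotypes overlapped, between 8.94 and 10.17 in Nr2f6-/- and between 8.61 and 9.73 in wild-type samples. Genes of T cell receptor signaling and NFAT had a median of 0.26, with 31 of 38 higher, 0 past the adjusted threshold and 7 higher and 0 lower at an unadjusted p under 0.05. Averaged over the 38 genes on the log2 scale, the Nr2f6-/- samples lay between 10.79 and 11 and the wild-type samples between 10.47 and 10.75. The 13 conventional T cell markers also lay higher, with a median of 0.30, 12 of 13 higher and a difference in list means of 0.30, beside 0.30 for the receptor signaling genes, and their part in this difference was not tested.

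Nfatc1, the NFAT factor that T cell receptor signals induce most, was between 3864 and 6023 normalized counts in Nr2f6-/- samples (median 4758) and between 2025 and 3639 in wild-type samples (median 2696). The groups did not overlap, but the log2 fold change of 0.78 missed the threshold (adjusted p = 0.0618 from limma). Ptpn22, a phosphatase that turns off Lck and ZAP-70, and Prkcq, the kinase PKC-theta that phosphorylates NR2F6, had log2 fold changes of 0.58 and 1.02 (adjusted p = 0.147 and 0.220 from limma). Among adenosine and cyclic AMP genes the median was 0.18. Entpd1 was the 1 of 29 past the threshold, and the adenylate cyclase Adcy7 and the kinase subunit Prkacb both had a log2 fold change of 0.65 without overlap (adjusted p = 0.0936 and 0.138 from limma). Of the 14 tested RGS and RGK genes, Rgs2 and Gem passed, and the list had a median of 0.16 but a mean of −0.08.

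The effector cytokines that NR2F6 is known to repress did not pass the threshold. Ifng was between 3498 and 8672 normalized counts in Nr2f6-/- samples (median 4218) and between 2662 and 4909 in wild-type samples (median 3777), a log2 fold change of 0.35 (adjusted p = 0.610 from limma). Il2 was between 144 and 313 (median 222) against 87.5 to 433 (median 151), a log2 fold change of 0.41 (adjusted p = 0.854 from limma). For both genes the samples overlapped widely. Tnf, the inflammatory cytokine, had a log2 fold change of 1.93 ± 0.93 (SE, limma adjusted p = 0.507). Wild-type replicate 2, at 0, carried most of this, and without it the Tnf value was 0.66. Il10 and Ebi3, which encode suppressive cytokine chains, had 1.73 and −2.11, the latter −1.19 without Nr2f6-/- replicate 5. Without Nr2f6-/- replicate 5, Ifng had 0.18, and Il2 had 0.69 without wild-type replicate 2 and 0.23 without wild-type replicate 6. The list of cytokines had 0 of 14 past the threshold and a median of 0.11, whereas its mean was −0.09, of the other sign.

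Cytotoxic effectors had a median log2 fold change of 0.36, with 16 of 22 higher and 0 past the threshold, while their mean was −0.07. At an unadjusted p under 0.05, 5 were higher (Nkg7, Gzmb, Slamf7, Ctsw and Srgn) and 1, Gzmc, lower, against 4.66% and 5.07% of all genes tested. Gzmb, the protease that starts death of target cells, was between 13066 and 23685 normalized counts in Nr2f6-/- samples (median 16405) against 8346 to 18977 (median 10518), a log2 fold change of 0.65 (adjusted p = 0.225 from limma). Killer lectin-like receptors, which read MHC class I and stress ligands, had the highest median of any list, 1.03, with 14 of 17 higher and 0 past the threshold. That median was 0.63 with a pseudocount of 10, with 13 of 17 higher, and the mean of the list was 0.78. Averages over the 17 genes overlapped, between 5.94 and 7.18 in Nr2f6-/- and between 5.32 and 6.96 in wild-type samples. Klrd1 (CD94) was between 4150 and 7892 normalized counts against 1488 to 4541 (log2 fold change 0.94, adjusted p = 0.0829 from limma), while Klrc1, which encodes its partner NKG2A, and Klrk1 (NKG2D) had 0.59 and 0.61. Klrg1 went the other way, with −1.16 (adjusted p = 0.386 from limma). Reads of the Klra genes in this list may be split between near-identical copies.

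Among 22 chemokines and receptors, Ccl5 was the 1 past the threshold. Ccl3 and Cxcr6 had log2 fold changes of 0.55 and 0.43 (adjusted p = 0.412 and 0.358 from limma), and the list's median was −0.08. Among 17 inhibitory receptors and ectonucleotidases the median was 0.30, and Entpd1 was the 1 past the threshold. Pdcd1, the gene of PD-1, was between 8218 and 11653 normalized counts (median 9694) in Nr2f6-/- samples and between 7391 and 12437 (median 9723) in wild-type samples. Its log2 fold change of 0.03 had a standard error of 0.16. Ctla4 and Cd274, the gene of PD-L1, had 0.53 and 0.28 (adjusted p = 0.592 and 0.888 from limma), and Cd160 had 0.70 (adjusted p = 0.356 from limma) without overlap.

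Costimulatory receptors divided. Tnfrsf9 (4-1BB), a marker of recent receptor engagement, was between 1890 and 3650 normalized counts in Nr2f6-/- samples (median 2334) against 3271 to 5512 (median 4508). Its log2 fold change was −0.78 (adjusted p = 0.0634 from limma), while Cd28 had 0.66 and Tnfrsf18 (GITR) −0.71. Of the 19 genes 4 were higher and 4 lower at an unadjusted p under 0.05, against 4.66% and 5.07% of all genes tested. At the adjusted threshold 0 passed. The list's median was 0.04 and its mean −0.19. Among the 20 tested regulatory T cell genes 10 were higher and 10 lower, with a median of −0.0097. Of the 20, 2 were higher and 6 lower at that unadjusted p, against the same shares of all genes tested. The lower ones included Tnfrsf9, Tnfrsf18 and Tnfrsf4, which the costimulatory list also holds. The 1 of the 20 past the adjusted threshold was again Entpd1, which exhausted CD8+ T cells share. Capg, an actin-capping protein on that list, had −0.82 (adjusted p = 0.143 from limma).

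Of the lineage and exhaustion factors, 0 of 28 passed the threshold. Tox2, a TOX family factor, was between 868 and 1730 normalized counts in Nr2f6-/- samples (median 1283) against 220 to 1152 (median 372), a log2 fold change of 1.51 (adjusted p = 0.0791 from limma). Id2, which favors effector cells, and Id3, which favors memory precursors, went in opposite directions with 0.61 and −1.28 (adjusted p = 0.221 and 0.217 from limma). The memory and stem-like list had a median of −0.14 and 0 of 20 past the threshold, and Igfbp4, a binding protein of insulin-like growth factors expressed in naive cells, had −2.41 without overlap (adjusted p = 0.0634 from limma). Of the JAK, STAT and SOCS list, 0 of 36 passed. Socs3, the feedback inhibitor of IL-6 signals, had 1.41 and the IL-4 receptor chain Il4ra −0.74 (adjusted p = 0.0634 and 0.352 from limma).

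Interferon-induced genes had a median of −0.0025 and 0 of 40 past the threshold, with 5 higher (Igtp, Ifi47, Parp9, Irf1 and Zbp1) and 0 lower at an unadjusted p under 0.05 (4.66% and 5.07% of all genes tested). The MHC class I genes had a median of 0.26, with 16 of 19 higher and 7 higher and 0 lower at that p, against 4.66% and 5.07% of all genes tested. The difference in list means was 0.26, beside 0.30 for the conventional T cell markers, whose part in it was not tested. Averages over the 19 genes overlapped narrowly, between 12 and 12.26 in Nr2f6-/- and between 11.63 and 12.01 in wild-type samples. H2-Q7 and the proteasome activator Psme1 had 0.50 and 0.48 (adjusted p = 0.242 and 0.261 from limma), and H2-Q7 shares long stretches with other class I genes, so that its reads may be split. The survival genes had a median of 0.08 and 0 of 26 past the threshold, with Bcl2a1b at −0.65, Cflar at 0.59 and Birc2 at −0.43. Apart from Nr2f6, 0 of the 20 tested nuclear receptor genes passed, and the glucocorticoid receptor gene Nr3c1 and Rora had −0.63 and −0.53.

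**Figure D3:**
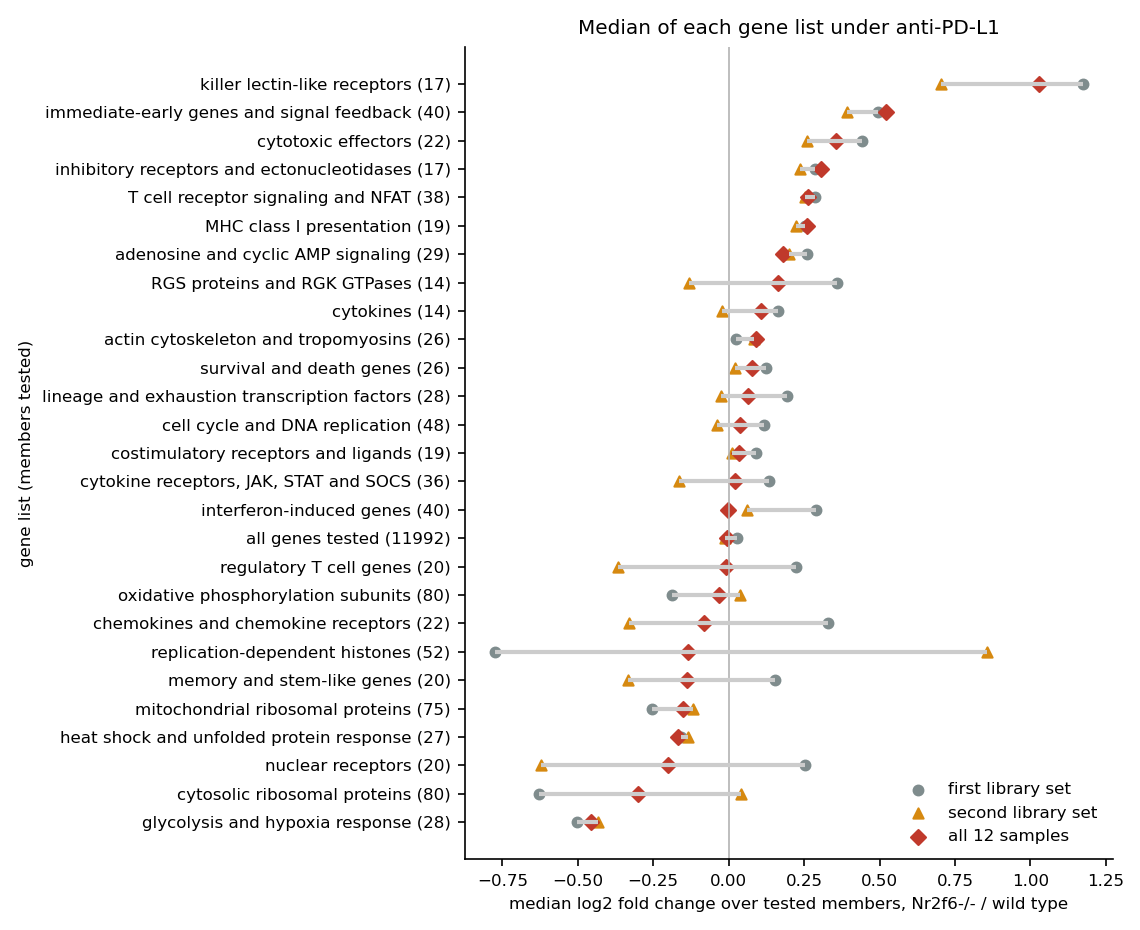
Median log2 fold change (Nr2f6-/- over wild type, x axis) over the tested members of each gene list (y axis, members in parentheses) under anti-PD-L1. Diamonds are all 12 samples, circles the first and triangles the second library set. Immediate-early genes, receptor signaling and MHC class I lie above 0 and glycolysis below 0 in both sets, whereas ribosomal proteins lie at −0.63 in the first and 0.04 in the second.

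Housekeeping lists were among those where the sets parted. Some T cell lists parted too, with medians of opposite sign in the first and second set. These were 0.33 and −0.33 for chemokines and receptors and 0.15 and −0.33 for memory and stem-like genes. They were 0.22 and −0.37 for regulatory T cell genes and 0.25 and −0.62 for nuclear receptors. Of 80 cytosolic ribosomal protein genes 75 were lower over all samples, with a median of −0.30, 0 past the threshold and 28 lower and 0 higher at an unadjusted p under 0.05, where 5.07% and 4.66% of all genes tested were. In the first set 78 of the 80 were lower (median −0.63), and in the second 31 were (median 0.04). Rps15, a protein of the small subunit, had a log2 fold change of −0.76 over all samples. Replication-dependent histones spread more widely still, with a median of −0.78 in the first set and 0.86 in the second, and 0 of 52 past the threshold. Near-identical histone genes share reads, so single members such as Hist1h1e (−1.19) and Hist1h2bh (2.96) are uncertain. How evenly the mRNA kit captures histone transcripts was not tested.

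Glycolysis and hypoxia genes, by contrast, lay on one side in both sets. Over all samples 26 of 28 were lower, with a median of −0.46, 0 past the threshold and 9 lower and 0 higher at an unadjusted p under 0.05, against 5.07% and 4.66% of all genes tested. The median was −0.50 in the first set and −0.43 in the second. Averages over the 28 genes overlapped, between 9.135 and 10.07 in Nr2f6-/- and between 9.31 and 10.57 in wild-type samples. Ddit4, an inhibitor of mTORC1 induced by hypoxia, was between 1829 and 4521 normalized counts in Nr2f6-/- samples (median 2574) and between 2499 and 10822 in wild-type samples (median 6974), a log2 fold change of −1.19 (adjusted p = 0.0618 from limma). The glycolytic enzyme Tpi1 had −0.62 (adjusted p = 0.258 from limma). Of the 27 heat shock and unfolded protein genes, 8 were lower and 0 higher at an unadjusted p under 0.05 (5.07% and 4.66% of all genes tested), among them Pdia4 (−2.02) and Hsp90aa1 (−0.51). Melanocyte markers were lower alongside, with 10 of 11 tested below 0, a median of −1.44 and 0 past the threshold, and the part of tumor cell RNA in these lists was not tested.

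Mitochondrial ribosomal proteins had a median of −0.15, with Mrpl45 past the threshold and Mrps6 at −0.69 (adjusted p = 0.165 from limma). Oxidative phosphorylation subunits lay at −0.03, with Atp5d and Ndufb4 at −0.50 and −0.55 and 0 of 80 past the threshold. Cell cycle genes had a median of 0.04 and a mean of −0.0033, with 0 of 48 past it, Tubb5 at 0.39 and the cell cycle inhibitor Cdkn1a at −0.94. Of 26 actin and tropomyosin genes Tpm4 was the 1 past the threshold, and their median was 0.09 and their mean −0.09.

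Under the control antibody the same genotype contrast, with 3 against 3 other samples, called 0 genes in limma, with 641 (5.35%) at an unadjusted p under 0.05. Of the 21 genes, 15 had the same sign under IgG2b, against 53.4% of all genes tested, and 4 of them, Nr2f6, Tpm4, Entpd1 and Gem, also had an unadjusted p under 0.05 there. Both counts include the deleted gene Nr2f6, whose sign is fixed by the genotype, and its neighbor Tpm4. Tpm4 was between 2949 and 4039 normalized counts in Nr2f6-/- and between 6506 and 7987 in wild-type samples with IgG2b, a log2 fold change of −0.97. Entpd1 had a log2 fold change of 1.23 with IgG2b and 1.27 with anti-PD-L1. Its genotype difference was therefore nearly as large under the control antibody.

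For other genes the values with IgG2b were of another order. Utf1 was between 162 and 429 normalized counts in Nr2f6-/- samples with IgG2b, where it was between 319 and 323 in wild-type samples. Tff1 was between 191 and 511 against 163 to 221, the opposite direction to that under anti-PD-L1. Rgs2 was between 12432 and 16714 in Nr2f6-/- and between 8911 and 13258 in wild-type samples with IgG2b, so that the wild-type samples with anti-PD-L1, at most 3232, were the low group of the 4. Gm24497, at 0 in wild-type samples with anti-PD-L1, was between 39 and 184 in wild-type samples with IgG2b. Egr1 was between 3761 and 6025 in Nr2f6-/- and between 4956 and 7539 in wild-type samples with IgG2b. Gm24265 was between 491 and 1088 and between 800 and 1222 there. For both genes, too, the wild-type samples with anti-PD-L1 were the low group, at most 3748 and 266. Egr1, Gm24265, Flt3l, Mrpl45 and Tctex1d2 had the opposite sign under IgG2b, with −0.22, −0.35, −0.07, 0.36 and 0.23.

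The difference between the antibodies was tested directly. The genotype contrast under anti-PD-L1 minus that under IgG2b passed the adjusted threshold for 0 genes in limma (smallest adjusted p = 0.330), with 596 (4.97%) at an unadjusted p under 0.05 and 0 genes by edgeR and 76 by DESeq2 at the adjusted threshold. Of the 21 genes 15 had an unadjusted p under 0.05 for this difference, but they had been chosen on one side of it, so the count supports nothing. All IgG2b samples were in the first library set, which also held 3 anti-PD-L1 samples of each genotype, and the count was 0 within that set alone and with the library set as a covariate. The macrophage and monocyte markers summed to between 10274 and 21994 normalized counts with IgG2b, above every anti-PD-L1 sample, and their part in the difference between antibodies was not tested.

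**Figure D4:**
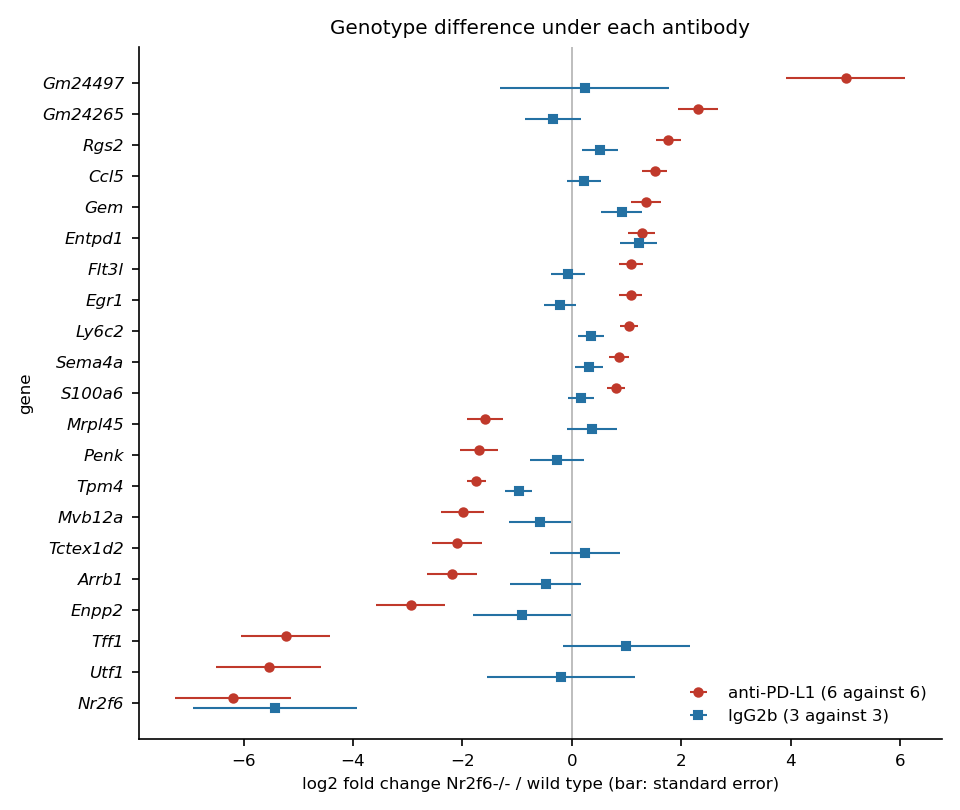
Genotype difference of the 21 genes under each antibody. The x axis is the log2 fold change (Nr2f6-/- over wild type), circles are anti-PD-L1 (6 against 6 samples), squares IgG2b (3 against 3), and bars are standard errors. Entpd1 lies at 1.27 and 1.23 under the 2 antibodies, and Tff1 lies at −5.23 and 1.0.

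The balance of CD8+ to CD4+ T cells bears on every value above. Cd8a was between 11329 and 17120 normalized counts in Nr2f6-/- samples (median 12528) and between 5361 and 13579 in wild-type samples (median 9330), a log2 fold change of 0.54 (adjusted p = 0.278 from limma). Cd4 was between 2026 and 5857 (median 3827) against 1669 to 7358 (median 4092), a log2 fold change of −0.12 (adjusted p = 0.924 from limma). As a log2 ratio, Cd8a to Cd4 came to 1.81 ± 0.73 in Nr2f6-/- samples and to 1.15 ± 1.23 in wild-type samples (SD, n = 6 each). The difference of 0.66 was within the spread between samples (two-sided exact permutation test over 924 assignments, p = 0.284). It was 0.05 in the first set and 1.28 in the second, where 2 wild-type samples lay below 0. The part of the CD8+ share in the differences of cytotoxic genes was not tested.

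**Figure D5:**
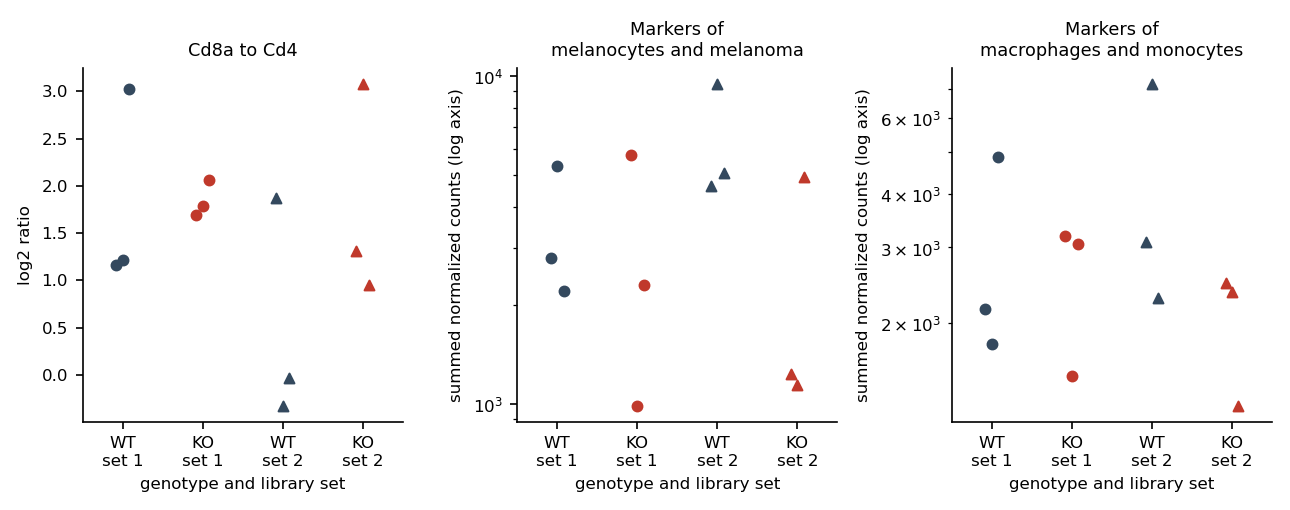
Log2 ratio of Cd8a to Cd4 (left), summed normalized counts of melanocyte and melanoma markers (middle, log axis) and of macrophage and monocyte markers (right, log axis) for each sample, by genotype (WT wild type, KO Nr2f6-/-) and library set. Points are samples, 3 in each column, and the genotypes overlap in all 3 measures.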

How the data were processed

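CD3+ tumor-infiltrating T cells were sequenced from 18 samples, of which the 6 Nr2f6-/- and 6 wild-type anti-PD-L1 samples form the comparison. After trimming by cutadapt and Trimmomatic, the authors aligned reads to mm10, first by STAR and, where that failed, by Bowtie2. Multi-mapping reads entered the HTSeq counts by their primary alignment alone. The deposited signal is each gene's reads over a size factor of the sample, and 100% of the values were whole multiples (within 0.001) of the value of 1 read. Annotation, strand setting and tool versions are not given in the sources used here, so reads of overlapping and antisense genes cannot be told apart. Dividing by that value gave the reads per sample, between 12473391 and 18609482. The floor of 3 reads covers counting error only, while the standard errors and SDs rest on the spread between samples.

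limma (version 3.58.1, R 4.3.3) was fitted to log2(value + 1) for genes with a mean of at least 10, as 1 model of the 4 group means over 18 samples, with the trend option of eBayes. Alternatives were other pseudocounts, filters, scalings, sample subsets and weights, and edgeR (4.0.16) and DESeq2 (1.42.0) on the recovered reads. The scripts were tested on simulated data with known changes. Members and gene lists were chosen with earlier results of these data known. Named genes were all genes past the threshold, 9 genes fixed by name, the 3 (T cell lists) or 2 (general lists) members with the smallest p of each list, and genes that spell out a count of 11 or fewer, chosen after their values were seen. Positions and promoters are from RefSeq (GRCm38.p6). A few genes that this rule names are not reported here.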

Additional observations from a re-analysis of the deposited data

Results flagged for a closer look

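Single samples stood far from the other 5 of their group for 9 of 159 groups of 6 examined among the 81 named genes, where chance flags about 1 in 20 groups. The measure is the gap to the nearest sample as a share of the group's range on the log2 scale, past Dixon's critical value for 6 samples. Wild-type replicate 2 was high for Gm24265 (266 normalized counts against at most 105 in the others, share 0.870) and at 0 for Tnf (0.665). Tnf was low in Nr2f6-/- replicate 5 as well (68.4 against at least 292, share 0.661). Nr2f6-/- replicate 6 was low for Ccl3 (0.752). Wild-type replicate 5 was low for Klrd1 (0.643) and high for Birc2 (0.665) and Hist1h2bh (0.765), the last at 18.9 normalized counts against at most 1.02. Wild-type replicate 4 was low for Cflar (0.628), and wild-type replicate 1 for Rps15 (0.658).

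The genotype difference changed between the library sets for 7 genes, tested as an interaction in limma. The second minus the first log2 fold change was 1.48 for Capzb, 1.65 for Hmgb2, 2.0 for Malat1, 1.92 for Rpl10-ps3, 2.69 for Rpl35, 1.29 for Rpsa and 2.0 for mt-Rnr2, with adjusted p between 0.0109 and 0.0441. In the first set mt-Rnr2 was between 417074 and 472788 normalized counts in Nr2f6-/- samples and between 785086 and 1176402 in wild-type samples. In the second set the order turned, with 568828 to 868933 in Nr2f6-/- and 352813 to 454357 in wild-type samples.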

How the results depend on the processing

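The count of 21 genes by genotype kept within 1.5 times under other pseudocounts, a mean of at least 50, quantile scaling, equal totals, the library set as a covariate and sample weights (20 to 29 genes) and with edgeR (22). It was 9 without a filter, 4 over the 12 samples alone, 1 and 0 in the first and second library set alone, 34 in the first set with all 4 groups (chosen after seeing the data), 184 with DESeq2 and 1167 with unadjusted p. Leaving out one sample gave between 9 and 27 genes. Similar counts did not always mean the same genes. Of the 21, 17 were also called with edgeR, 18 with sample weights and 19 at a mean of at least 50. Arrb1, Enpp2, Mvb12a and Tctex1d2 missed the threshold with edgeR (adjusted p between 0.0581 and 0.0641). The smaller fits have fewer samples to estimate the spread, and the cause of the other changes was not tested. The replicate numbers do not pair the samples (correlations of same-numbered deviations between −0.029 and 0.037), and the replicate block gave 31 genes by genotype, 0 between antibodies and 0 between library sets. For the difference between antibodies the count of 0 became 5 without a filter, 76 with DESeq2 and 596 with unadjusted p, and stayed 0 when any one sample was left out. For the 7 genes between sets it was 0 without a filter and over the 12 samples, 3 with quantile scaling, 4 with equal totals, 264 with DESeq2, 939 with unadjusted p, and between 0 and 40 without one sample. The difference in the Cd8a to Cd4 ratio stayed positive and past no threshold, between 0.37 and 1.03 without one sample, and an exact permutation of paired signs (replicate block) gave p = 0.375. The 551 genes with the same sign in both sets numbered between 515 and 564 with other pseudocounts, the higher filter or edgeR, and 767 of 1307 in the first set with all 4 groups. Among the 81 genes recomputed under each of these settings, 3 with small differences turned sign: Pdcd1 (−0.12 in the first set, and between −0.043 and 0.107 without one sample), Cd274 (−0.30 in the second set, and between −0.0018 and 0.58 without one sample) and Cd4 (0.24 in the first set, and between −0.37 and 0.054 without one sample). Of 2103 recomputed values of named genes 163 lost and 50 gained the threshold.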
